A study of Mus with 8 samples.

Results

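Follistatin, the activins and the activin receptors form a small extracellular signalling system, and 10 of its genes were followed here: Fst, Fstl1, Fstl3, Inhba, Inhbb, Inhbc, Inhbe, Acvr1b, Acvr2a and Acvr2b. They were chosen by gene symbol, as a family, after an earlier analysis of the same contrast had shown a large difference in Fst. Their differences between the groups are therefore given as a description with their errors, and no test of them is used as support. All 10 were found among the 23185 named genes of the table, each on 1 row. The RNA came from mouse livers 48 h into regrowth after partial hepatectomy, the surgical removal of part of the organ, and was measured on expression arrays. Each of 2 groups held 4 arrays, labelled Control and LKB1 KO by genotype. LKB1 is the protein kinase encoded by Stk11. The mouse strain, sex and age, the way LKB1 was removed and the cells it was removed from are not stated in the labels. Nor do the labels say that arrays of a group came from separate animals, so errors and p-values cover the spread between these samples, which may in part be technical.

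Activins are dimers of inhibin beta subunits and belong to the TGF-beta superfamily. Activins A and B, built from the subunits encoded by Inhba and Inhbb, bind the type II receptors encoded by Acvr2a and Acvr2b. These receptors recruit and phosphorylate a type I receptor such as ALK4, the product of Acvr1b. The signal passes on through SMAD2, SMAD3 and SMAD4. Follistatin wraps around activin A or B and keeps it from its receptors. Whether the same holds for dimers of the Inhbc or Inhbe product was not tested here. The liver is a main source of circulating follistatin, activin A restrains hepatocyte growth, and follistatin given after partial hepatectomy is known to speed regrowth in rodents. The subunit genes Inhbc and Inhbe are expressed mainly by hepatocytes.

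Each value is a log2 expression level made by the authors with RMA (robust multi-array average), so a difference of 1 is a 2-fold change. The 95th percentile of the mean levels of 1354 olfactory and vomeronasal receptor genes, which liver is not known to use, lay at 3.73 log2 units and serves as a background level. Of the 10 genes, 7 lay above it in all 8 arrays and 3 (Inhbb, Acvr1b and Acvr2b) fell under it in at least 1 array. RMA compresses differences near background, so folds of dim genes are uncertain. Levels of different genes are not set against each other, since their probes differ. The probes' positions are not known, so transcript forms of a gene, such as those of Fst, could not be told apart.

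The labels were checked on Stk11, which lay between 6.46 and 6.76 in Control and between 3.97 and 4.84 in LKB1 KO, with no array against its label. It fell by 2.39 (SE 0.19, limma adjusted p = 0.000453), though the probes' position relative to the deleted part is not known. LKB1 KO 2 and Control 4 stood farthest from the other arrays over all genes. Hepatocyte markers were high in every array: the mean over the 9 measured ones lay between 11.66 and 11.75 in Control and between 11.49 and 11.63 in LKB1 KO, and 0 of 9 passed the test over all genes (limma, 2 at an unadjusted p under 0.05, both lower). Over all marker lists, hepatocytes included, 5 of 67 measured genes fell and 0 rose, where 1.49% of all genes passed as lower. The mean over 10 endothelial markers lay between 6.65 and 6.98 in Control and between 6.23 and 6.46 in LKB1 KO. In limma 3 of 10 fell, namely Clec4g, Gpr182 and Kdr, and 0 rose. At an unadjusted p under 0.05, 7 were lower and 0 higher, and all 10 had a difference below 0 (median -0.56). The mean over 8 Kupffer cell and macrophage markers lay between 6.35 and 7.32 against 6.06 and 6.48 (Csf1r fell, 0 rose). Of these, 4 were lower and 0 higher at an unadjusted p under 0.05, and all 8 had a difference below 0 (median -0.46). Over 14 stellate and mesenchymal markers the mean lay between 5.23 and 5.78 against 4.86 and 5.41 (0 passed in limma, 6 at an unadjusted p under 0.05, all lower). Over 6 neutrophil markers it lay between 4.35 and 5.39 against 3.95 and 4.36 (0 passed in limma, 4 at an unadjusted p under 0.05, 3 of them lower). The list means of the groups overlapped for the Kupffer, stellate and neutrophil lists. Of 3 erythroid genes Alas2 fell by 1.03 (SE 0.23, limma adjusted p = 0.0471). Hbb-b1 at -0.45 and Slc4a1 at 0.38 did not pass, and Slc4a1 was under the background level in 7 of 8 arrays. The erythroid list means lay between 6.09 and 6.32 in Control and between 5.25 and 6.19 in LKB1 KO, so they overlapped. Of 5 mesothelial genes 0 passed in limma and 0 had an unadjusted p under 0.05. Of the lymphocyte markers 4 of 7 were under the background level in all arrays, as were 2 of 5 cholangiocyte markers. The part of these shifts in the values below was not tested, and in bulk liver RNA fewer cells of a type cannot be told apart from less RNA per cell.

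The largest differences within the family lay in Fst and Inhbe, which both encode secreted proteins. Fst, the activin antagonist, stood 5.72-fold higher in LKB1 KO livers, and Inhbe, the activin beta E subunit, 4.65-fold lower. Inhbc and Inhba also had lower means, by smaller amounts. Inhbb had a higher mean, by 0.37 log2 units, but its Control values lay near background, so the size of this difference is uncertain. The receptors and the follistatin relatives had differences with intervals that include 0. For Acvr1b and Acvr2b, values near background set no limit on a difference. In the fit over all genes (limma, Benjamini-Hochberg adjusted p under 0.05), 1 of the 10 was higher (Fst), 1 lower (Inhbe) and 8 did not pass. The same threshold was passed by 0.487% of all genes in the higher direction, 1.49% in the lower direction and 1.98% in either. With the arrays put through quantile normalization, 198 genes were called higher and 340 lower, against 113 and 345 as deposited. These shares also rested on single arrays: 42 to 52 genes were higher when any of LKB1 KO 1, 3 and 4 or of Control 1 and 2 was left out, and 164 to 229 were lower without Control 1, Control 2 or any LKB1 KO array. Without moderation of variances the counts were 13 and 84. The median difference of the 10 genes was -0.28, with 3 above 0 and 7 below, and that of all genes was 0.016, with 12261 above 0 and 10924 below.

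**Figure D1:**
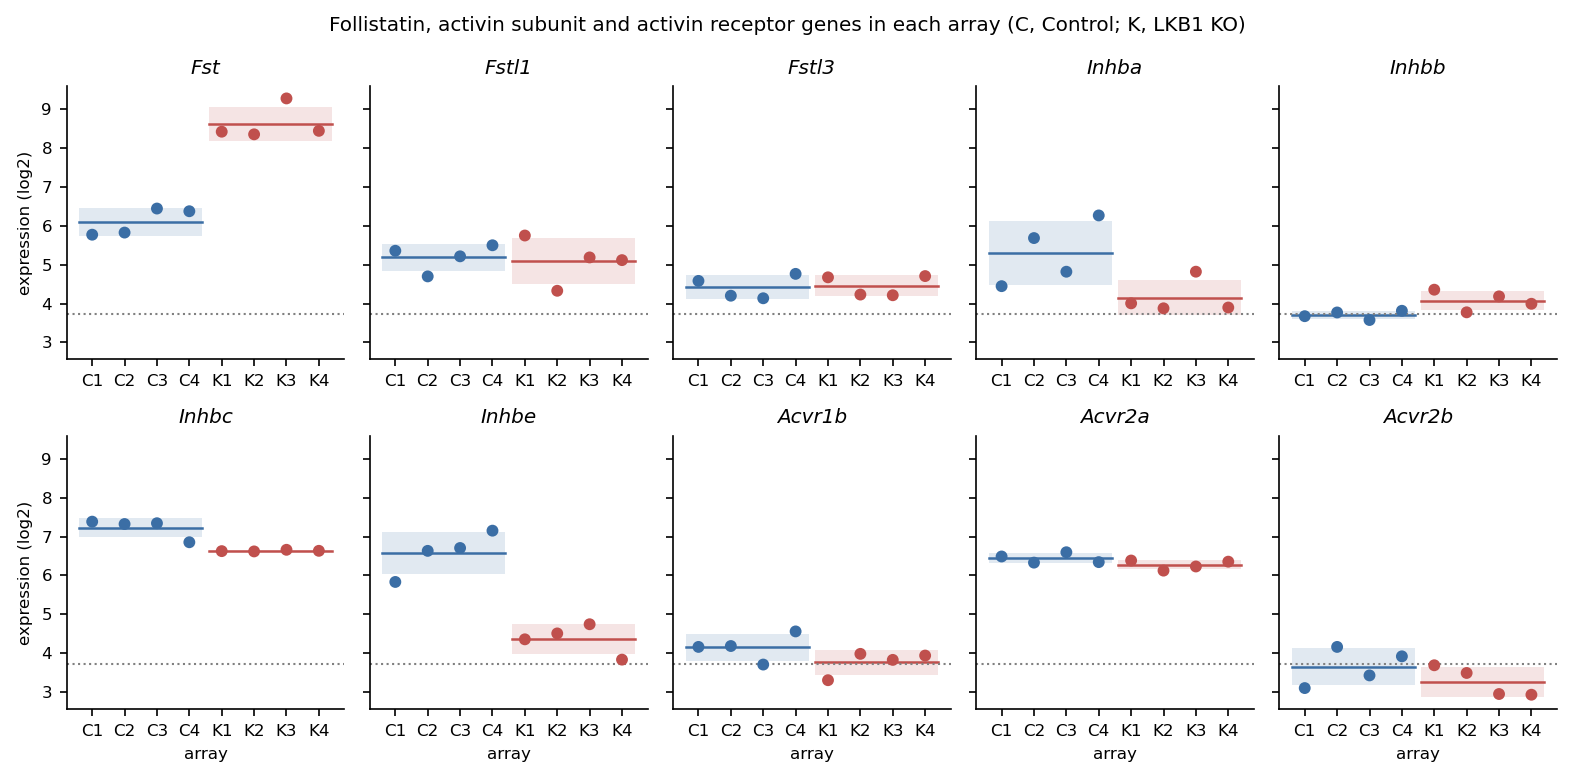
Log2 expression of the 10 genes (1 panel each) in Control arrays C1 to C4 (blue) and LKB1 KO arrays K1 to K4 (red). Lines are group means, shaded bands ± 1 SD (n = 4) and the dotted line the background level of 3.73. Fst is higher in all 4 LKB1 KO arrays, and Inhbe and Inhbc are lower in all 4.

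Among the antagonists, Fst separated the groups by a wide margin. Control 1 to 4 gave 5.77, 5.82, 6.44 and 6.37, whereas LKB1 KO 1 to 4 gave 8.41, 8.34, 9.27 and 8.43. The groups did not overlap, and 1.91 log2 units lay between the highest Control array and the lowest LKB1 KO array. Control averaged 6.10 ± 0.35 and LKB1 KO 8.61 ± 0.44 (SD, n = 4). LKB1 KO thus lay 2.51 above Control (SE 0.24, with 1.99 to 3.04 as the 95% confidence interval). On the linear scale this is 5.72-fold, with bounds of 3.98 and 8.21. By size it was the 8th largest rise among the 23185 genes. This rank is a description only, since the family was chosen after Fst was seen to differ. LKB1 KO 3 stood above its own group, and without it the difference was 2.30 and still past the threshold.

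Fstl3 encodes a close relative of follistatin that also binds activins. It lay between 4.14 and 4.76 in Control and between 4.21 and 4.70 in LKB1 KO, so the range of the second group fell wholly inside that of the first. The difference of 0.035 (SE 0.18, interval -0.37 to 0.44) leaves room for a 1.36-fold rise or a fall by 0.37 log2 units. Its sign turned when arrays were centred on their medians, so no direction can be given.

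Fstl1 carries a follistatin-type domain, but is better known as a secreted glycoprotein of mesenchymal cells than as an activin antagonist. Its lowest and highest values were 4.70 and 5.50 in Control and 4.33 and 5.75 in LKB1 KO, with the low end set by LKB1 KO 2. The difference was -0.10 (SE 0.28, interval -0.71 to 0.51), and the arrays of the groups overlapped throughout. It came to 0.16 without LKB1 KO 2 and to 0.0053 without Control 4, so again no direction can be given.

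Among the ligand genes, Inhbe showed the largest difference. Control 1 to 4 stood at 5.83, 6.63, 6.71 and 7.15, well apart from LKB1 KO 1 to 4 at 4.36, 4.51, 4.75 and 3.84. All LKB1 KO arrays were lower than all Control arrays, with a gap of 1.09 log2 units, and all stayed above the background level, the lowest (LKB1 KO 4) only just. The means were 6.58 ± 0.55 and 4.36 ± 0.38 (SD, n = 4), a difference of -2.22 (SE 0.27, interval -2.82 to -1.61). That is a 4.65-fold lower level, with an interval from 3.06 to 7.06, and the 21st largest fall of all genes. With single arrays left out the difference ran from -2.46 to -2.03 and passed the threshold each time. It did not pass when variances were estimated gene by gene without moderation (adjusted p = 0.0673 in that limma fit).

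Inhbc, the beta C subunit gene, lies next to Inhbe. In the RefSeq gene table for GRCm38.p6, which is used here for gene order only, 0 genes of any kind lie between them. Inhbc stood at 7.38, 7.32, 7.34 and 6.85 in Control 1 to 4. The LKB1 KO arrays gave 6.63, 6.62, 6.66 and 6.63, all below the Control arrays. The 4 LKB1 KO values spread by far less (SD 0.018) than the Control values (SD 0.25). The difference of -0.59 (SE 0.14, interval -0.90 to -0.28) is a 1.51-fold lower level and did not pass the threshold over all genes. Control 4 lay apart from the other Control arrays, and without it the difference was -0.71 and passed. It also passed without both Control 4 and LKB1 KO 2 (-0.71) and with array weights (-0.62). In the other 16 of 19 alternatives Inhbc did not pass (limma adjusted p up to 0.180).

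On the outer sides of Inhbe and Inhbc, the neighbouring protein-coding genes were Gli1 (difference 0.31, SE 0.16) and R3hdm2 (-0.25, SE 0.18), and neither passed the test (limma adjusted p = 0.454 and 0.621). The group means of Gli1, 2.80 and 3.10, were under the background level.

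Inhba encodes the beta A subunit of activin A, the form best known to restrain hepatocyte growth. Its Control values were 4.45, 5.68, 4.82 and 6.26, and its LKB1 KO values were 4.00, 3.88, 4.82 and 3.90 in arrays 1 to 4. The groups overlapped, because LKB1 KO 3 lay above Control 1 and Control 3. Control 2 and Control 4 carried the high values. The means were 5.30 ± 0.82 and 4.15 ± 0.45 (SD, n = 4), and the Control SD was the widest of any of the 10 genes in either group. The difference of -1.15 (SE 0.37, interval -1.97 to -0.34) did not pass the threshold. Without both Control 4 and LKB1 KO 2 it was -0.74.

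Inhbb, the beta B subunit gene, was dim. It ran from 3.58 to 3.81 in Control, with 2 of 4 arrays under the background level, and from 3.77 to 4.36 in LKB1 KO, with 0 of 4 under it. The ranges touched only through LKB1 KO 2, whose 3.77 lay below the 3.81 of Control 4. The difference was 0.37 (SE 0.15, interval 0.04 to 0.69), a 1.29-fold higher level that did not pass.

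None of the receptor genes passed the threshold. Acvr2a, a type II receptor gene, ranged from 6.33 to 6.60 in Control and from 6.12 to 6.38 in LKB1 KO, a difference of -0.17 (SE 0.12, interval -0.44 to 0.11). Acvr2b, the other type II receptor gene, was under the background level in 2 Control and all 4 LKB1 KO arrays, and its difference was -0.39 (SE 0.25, interval -0.95 to 0.17). Acvr1b, the type I receptor gene, ranged from 3.71 to 4.56 in Control and from 3.31 to 3.99 in LKB1 KO, with 1 array of each group under the background level and a difference of -0.39 (SE 0.20, interval -0.84 to 0.06). The groups overlapped in each of these receptor genes. For Acvr2a, which was above background in all arrays, the interval reaches a 1.36-fold lower level. For Acvr1b and Acvr2b the values near background set no limit on a difference. Single arrays moved both in either direction. Acvr1b was -0.24 without LKB1 KO 1, -0.25 without Control 4 and -0.54 without Control 3. Acvr2b was -0.22 without Control 2 and -0.57 without Control 1.

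**Figure D2:**
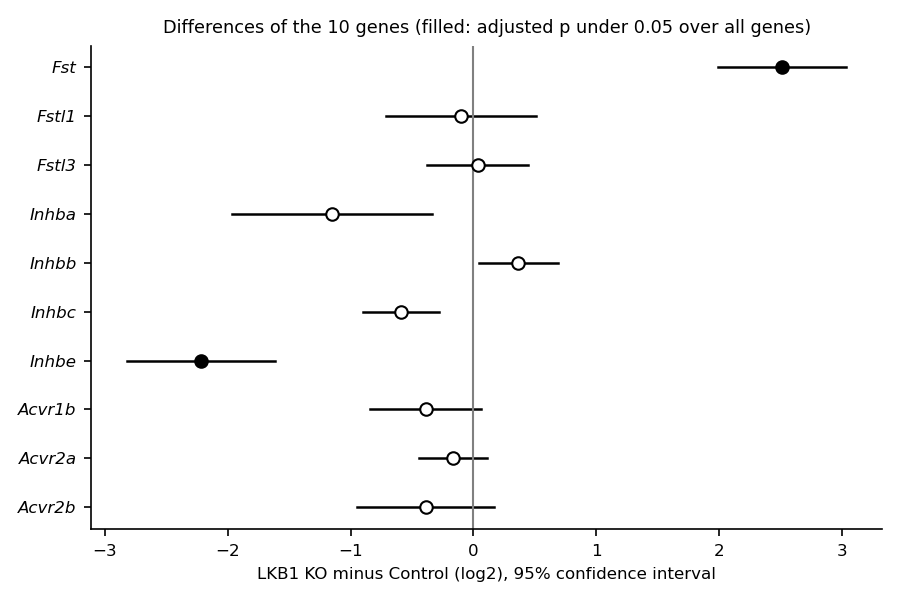
Difference LKB1 KO minus Control in log2 units for the 10 genes, with 95% confidence intervals (n = 4 arrays per group). Filled points passed an adjusted p of 0.05 over all genes: Fst at 2.51 and Inhbe at -2.22.

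Groups without overlap were seen in 3 of the 10 genes (Fst, Inhbc and Inhbe) and in 8.84% of all genes. The members were picked with this contrast known, so nothing is read from their share.

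**Figure D3:**
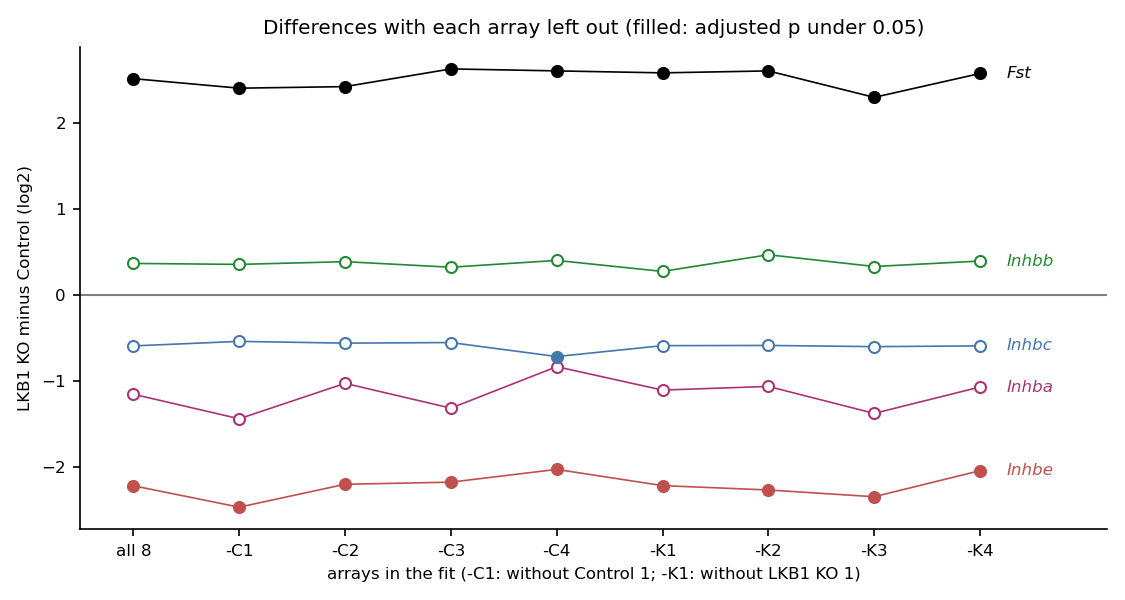
Difference LKB1 KO minus Control (log2) of 5 of the genes in the fit with all 8 arrays and with each array left out, where -C4 stands for the fit without Control 4. Filled points passed an adjusted p of 0.05 over all genes. Fst (2.30 to 2.63) and Inhbe (-2.46 to -2.03) passed throughout, and Inhbc passed only without Control 4 (-0.71).

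The genes whose profile over the 8 arrays lay closest to that of Fst were Gtdc1, Htra1, Sik1, Plk3 and Prom1. Likeness was measured as the root mean square difference between profiles after each was centred on the mean of its group means, and placeholder symbols were left out. Gtdc1, a glycosyltransferase-like gene, was nearest at 0.26 log2 units, followed by the secreted serine protease gene Htra1 at 0.30. Sik1, which encodes a kinase that LKB1 phosphorylates, lay at 0.38, the stress kinase gene Plk3 at 0.40 and Prom1 at 0.46. Their differences ran from 1.91 (Plk3) to 2.93 (Htra1), and all passed the test over all genes. Within Control, Fst was higher in arrays 3 and 4 than in 1 and 2, which Htra1, Sik1 and Prom1 shared, whereas Gtdc1 was high in Control 3 only and Plk3 was lower in Control 4 than in Control 1. Htra1 in Control 2 and Prom1 in Control 1 and Control 2 were under the background level, so their differences are uncertain in size. A short distance reflects the group difference for the most part, since both profiles step between the groups. The genes were picked by distance over the same 8 arrays, so a shared order within Control is partly built into the choice.

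Around Inhbe the nearest profiles were those of Cyp2d40 (0.31), Slc13a5 (0.34), Slc13a3 (0.41), Serpina7 (0.42) and Stk11 (0.44). Slc13a5 encodes a citrate transporter, Slc13a3 a dicarboxylate transporter and Serpina7 the thyroxine-binding globulin. Slc13a5 fell by 1.83 (SE 0.18) and Slc13a3 fell by 1.86 (SE 0.20). The LKB1 KO mean of Slc13a5, 3.66, was under the background level, so the size of its fall is uncertain. Serpina7 stood at -1.55 (SE 0.37) and did not pass (limma adjusted p = 0.0641). Stk11 is the gene that defines the groups. These genes too were picked by distance over the same arrays, so a fall between the groups is largely built into the choice.

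**Figure D4:**
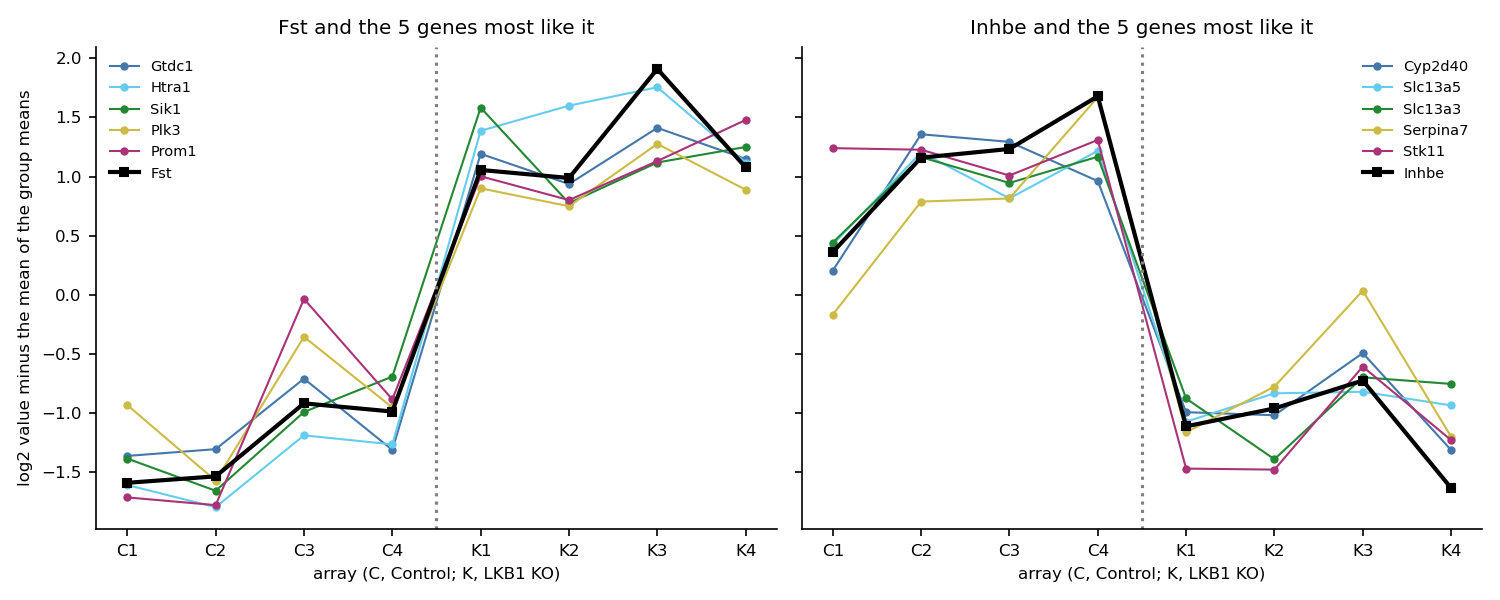
Log2 values, centred on the mean of the group means, of Fst (left) and Inhbe (right) in black and of the 5 genes with the smallest root mean square difference to each, over Control arrays C1 to C4 and LKB1 KO arrays K1 to K4. The nearest to Fst was Gtdc1 (0.26 log2 units) and the nearest to Inhbe Cyp2d40 (0.31).

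Around these genes, few others of the pathway passed the threshold over all genes. Of 104 measured genes on 8 lists of ligands, receptors, SMADs, binders, convertases and targets, 1 rose (Id1), 1 fell (Snai2) and 102 did not pass. That share of 1.92% is close to the 1.98% of all genes. At an unadjusted p under 0.05 there were 8 higher and 12 lower. The median difference over the 104 was 0.0075, with 55 above 0 and 49 below, and 22 of them lay under the background level in all 8 arrays.

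None of 9 other activin and TGF-beta type ligands passed in limma, and 0 had an unadjusted p under 0.05. The gene with the smallest p was Inha, the inhibin alpha subunit, at 0.46 (SE 0.21, limma adjusted p = 0.386). Of 7 BMP ligands 0 passed (1 at an unadjusted p under 0.05), with Bmp7 at 0.40 (SE 0.15, limma adjusted p = 0.270). None of 17 other receptors and co-receptors passed (1 higher and 4 lower at an unadjusted p under 0.05), and 12 of them had a difference below 0. Tgfbr2, the type II receptor of TGF-beta, had the smallest p. It lay between 4.65 and 4.87 in Control and between 5.15 and 5.85 in LKB1 KO, with a difference of 0.71 (SE 0.18, limma adjusted p = 0.0769). Its groups did not overlap. Tgfbr2 passed in 2 of 19 alternatives, after quantile normalization (0.0447) and with array weights (0.0352), and not in the other 17 (limma adjusted p up to 0.221). Acvr1c, which encodes ALK7 and was singled out after its values were seen, lay under the background level in all 8 arrays.

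Inside the cell, 0 of 19 SMADs and SMAD regulators passed in limma, 0 had an unadjusted p under 0.05, and the median difference was 0.0094. Smad2, a carrier of the activin signal, had the smallest p at -0.22 (SE 0.13, limma adjusted p = 0.510). None of 22 other extracellular inhibitors and binders passed (2 lower at an unadjusted p under 0.05). The proteoglycan gene Dcn was first among them at -0.43 (SE 0.13, limma adjusted p = 0.159), and it is also on the list of stellate and mesenchymal markers, whose median was -0.28. Of 11 other follistatin-domain proteins 0 passed (2 lower at an unadjusted p under 0.05), with the matricellular gene Smoc1 at -0.88 (SE 0.21, limma adjusted p = 0.0693). Smoc1 passed in 1 of 19 alternatives, with a trended and robust prior variance (0.0470), and not in the other 18 (limma adjusted p up to 0.242). The 6 convertase and procollagen protease genes gave 0 calls (1 higher and 2 lower at an unadjusted p under 0.05), led by Bmp1 at -0.58 (SE 0.18, limma adjusted p = 0.174).

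Both called genes were on the list of 17 measured SMAD targets, against 1.98% of all genes called, and no test of the list was made. Id1, an inhibitor of basic helix-loop-helix factors and a classic BMP target, stood at 6.09, 5.92, 6.82 and 6.28 over Control 1 to 4, and LKB1 KO 1 to 4 gave 7.42, 7.39, 7.65 and 6.996. It rose by 1.08 (SE 0.21, limma adjusted p = 0.0250) without overlap of the groups. Snai2, a transcriptional repressor gene, lay between 5.38 and 5.86 in Control and between 4.68 and 5.22 in LKB1 KO, and fell by 0.75 (SE 0.16, limma adjusted p = 0.0399). Over the 17 measured targets 12 had a difference above 0 and 5 below, with a median of 0.21. At an unadjusted p under 0.05, 5 were higher and 2 lower, the called genes included. The list's mean level was 6.10 to 6.39 in Control and 6.38 to 6.62 in LKB1 KO, so the groups touched.

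Both calls depended on single arrays. Id1 did not pass when any of LKB1 KO 1, 2 and 3 or of Control 1 and 2 was left out (limma adjusted p from 0.0580 to 0.0816), and Snai2 without any array but LKB1 KO 3 (0.0627 to 0.124). Over all alternatives the adjusted p of Id1 ran from 0.00948 to 0.150 and that of Snai2 from 0.0304 to 0.143. Neither changed direction, though several alternatives leave a difference unchanged by construction.

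**Figure D5:**
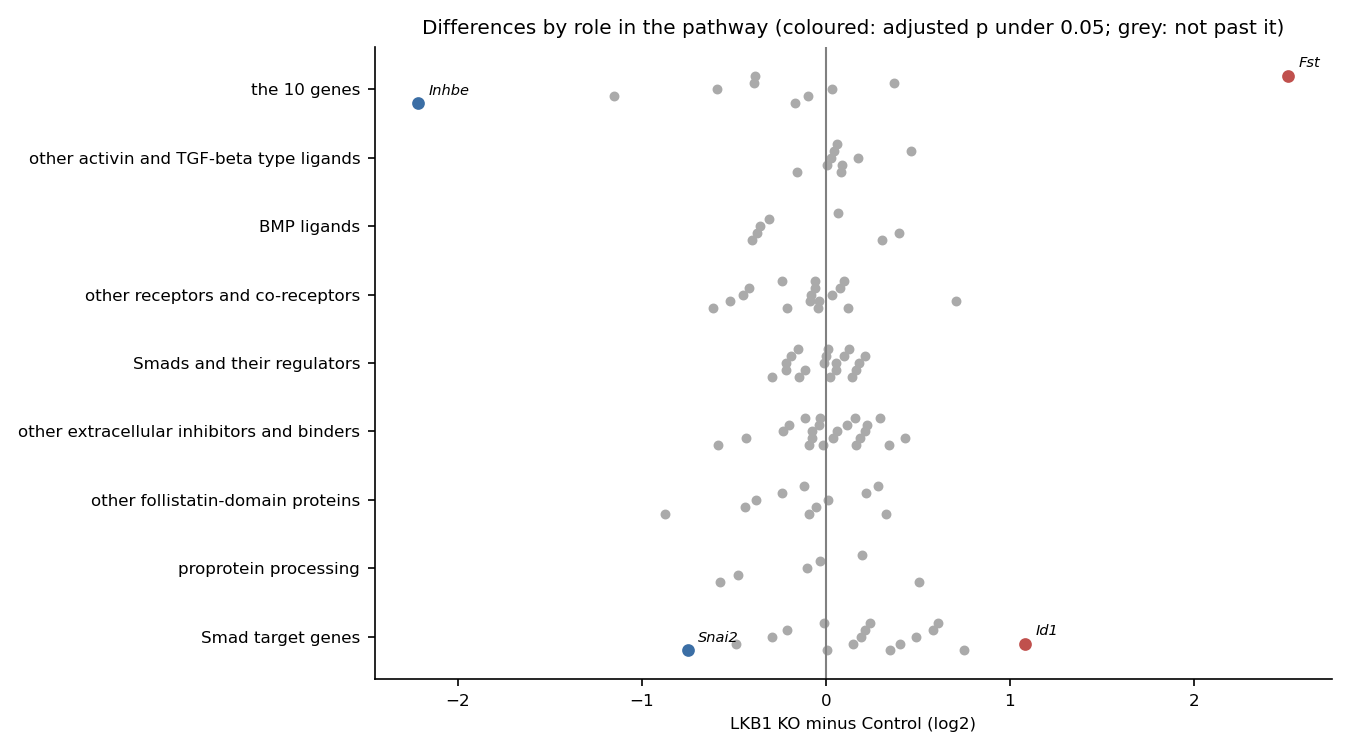
Difference LKB1 KO minus Control (log2) of the 10 genes and of 104 other pathway genes by list, where each point is a gene and a gene on 2 lists appears on both. Coloured points passed an adjusted p of 0.05 over all genes (red higher, blue lower): Fst and Inhbe in the top row, Id1 and Snai2 among the SMAD targets.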

How the data were processed

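The table deposited by the authors holds 1 log2 expression value for each of 25206 rows and 8 arrays. Per the submitters' processing notes it was made with RMA and Partek, without versions. RMA as usually run subtracts background, brings arrays to a common distribution and summarises probes. The deposited arrays nevertheless differed in distribution over the named genes. Their medians ran from 3.75 (Control 3) to 3.96 (LKB1 KO 2), and their SDs over genes from 1.92 (LKB1 KO 2) to 2.10 (Control 3). The cause was not tested. Neither array design nor genome build is named in those notes or the labels. GEO's platform annotation gave 23185 rows 1 symbol, 0 several and 2021 none. Groups and replicate numbers came from the titles.

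The fit (R 4.3.3, limma 3.58.1) used lmFit and eBayes per gene with the group alone and no filter, with Benjamini-Hochberg adjustment over 23185 genes and a two-sided threshold of 0.05. It had first been tested on simulated data. The number of arrays limits precision.

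The members, lists and rules were chosen with earlier results of these data known. Named are Stk11, the 10 members, up to 5 called genes per pathway list (else the smallest p), and the 5 profiles nearest each called member. Of the 108 listed pathway genes, 104 were analysed here.

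The alternatives were a replicate block, each array left out, both LKB1 KO 2 and Control 4 left out, quantile normalization, median centring, the dimmest 1 in 3 genes removed, a trended and robust prior, no moderation, array weights, all rows, an adjusted p under 0.01, and dim values set to the background level.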

Additional observations from a re-analysis of the deposited data

Results flagged for a closer look

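In 4 of 40 groups of 4 arrays, over the members, Stk11 and the named pathway genes, an array stood apart by Dixon's ratio. Chance alone gives about 1 in 20 groups. Fst in LKB1 KO 3 stood at 9.27, above the other LKB1 KO arrays at 8.34 to 8.43. Inhba in the same array stood at 4.82, above 3.88 to 4.00. Inhbc in Control 4 was low, at 6.85 against 7.32 to 7.38. Bmp1 in Control 1 was high, at 6.95 against 6.52 to 6.57.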

How the results depend on the processing

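Fst was higher and past the threshold in all 19 alternatives (differences 2.30 to 2.70). Inhbe was lower in all 19 (-2.46 to -2.03) and past the threshold in 18, the exception being no moderation of variances. By construction, a difference stays the same with the replicate block, dim genes removed, the trended prior, no moderation, all rows or the stricter threshold. Those alternatives can change a call but not a sign. Inhba, Inhbb, Inhbc and the 3 receptor genes kept their sign, and only Inhbc gained a call. Signs turned for Fstl1 and Fstl3. With single arrays left out Fstl1 ran from -0.31 to 0.16 and Fstl3 from -0.060 to 0.15. Fstl1 was 0.26 without both LKB1 KO 2 and Control 4 and 0.12 with array weights, and Fstl3 was -0.00084 with arrays centred on their medians. Of the 10 members, 2 passed (1 without moderation, and 2 to 3 with single arrays left out). Of the other pathway genes 2 passed, 3 with quantile normalization, a trended and robust prior or array weights, 0 to 1 with single arrays left out, and 0 without both arrays, without moderation, at an adjusted p under 0.01 or with dim values set to background. Over all genes 113 were higher and 345 lower. These were 42 to 144 and 164 to 382 with single arrays left out, 13 and 84 without moderation, 24 and 115 at 0.01, and 40 and 164 with dim values raised. Quantile normalization gave 198 higher and array weights 254. The replicate block left 186 lower and 1 pathway gene. Same-numbered arrays correlated at -0.04, -0.11, 0.18 and -0.02 in their deviations from the group means, and 2 of 8 correlated best with their own number, so the numbers were not taken as pairs. Where not said, the cause was not tested. Signal near background limits Inhbb, Acvr1b and Acvr2b.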

Other observations

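In the RefSeq gene order for GRCm38.p6, 3 activin subunit genes each have a Gli gene, encoding a transcription factor of Hedgehog signalling, as their protein-coding neighbour: Gli1 beside Inhbe, Gli2 beside Inhbb and Gli3 beside Inhba. This was noticed after the values had been seen. None of the Gli genes passed the threshold, and the group means of all 3 were under the background level. Gli1 stood at 0.31 (SE 0.16, limma adjusted p = 0.454), Gli2 at -0.0019 (SE 0.15, 0.998) and Gli3 at -0.10 (SE 0.18, 0.862). The protein-coding neighbours of Fst, the respiratory complex I subunit gene Ndufs4 and the molybdenum cofactor gene Mocs2, were at 0.20 (SE 0.11) and 0.14 (SE 0.12), and neither passed (limma adjusted p = 0.504 and 0.700).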
